A study of Homo sapiens with 12 samples.

Results

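The elements described here are short RNA sites of 8 bases that depart from the Pumilio response element at 2 places, position 1 and 1 of positions 6, 7 or 8. The consensus, in DNA letters, is TGTA at positions 1 to 4, any base at position 5, and A, T and A at positions 6, 7 and 8. Members were chosen from their letters alone: a base other than T at position 1, G, T and A kept at positions 2 to 4, any base at position 5, and exactly 1 substitution in positions 6 to 8. The 3 bases at position 1, the 4 at position 5 and the 9 possible second substitutions form a complete cross, and every combination was present, 36 for each base at position 1. These members make up 10.7% of the 1006 elements that were listed in all 12 libraries.

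Pumilio proteins are cytoplasmic RNA-binding proteins that lower the stability and translation of mRNAs, mostly through their 3′ UTRs. They hold RNA with a curved array of helical repeats, each reading a single base. The UGUA core at the 5′ end of the site is shared among Pumilio proteins, and the 3′ end is more variable. In RBPscan the RNA-binding protein carries a deaminase domain, and the adenosines it converts on a nearby recorder hairpin, read as G, report how much of the protein was there.

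The cells were HEK293T, a human embryonic kidney line, labelled wild type, and all carried a recorder mRNA library of such elements. The fusion of human PUM2 to a mutated ADAR catalytic domain (ADARcdMUT) was under doxycycline control and was measured in libraries labelled non-induced, 25 ng and 250 ng. A further group, labelled 1000 ng, expressed ADARcdMUT without PUM2. Titles give these amounts with no substance or volume, so 1000 ng may not be on the scale of the others. Each group had 3 replicates, which the series calls biological.

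Reporter bases beyond the element were not used here. The sequences below, written 5′ to 3′ with the bases that depart from the consensus in capitals, are the ones the results turn on. The first 2 are a consensus form and its variant with only the A6G substitution (A replaced by G at position 6, counted from 1 at the 5′ end).
Consensus form with T at position 5: tgtatata
A6G alone: tgtatGta
The next 3 are the members that join A6G with T at position 5 and so hold the letters TGTA again, at positions 5 to 8.
T1G with A6G: GgtatGta
T1A with A6G: AgtatGta
T1C with A6G: CgtatGta
The last 4 are the member with the lowest editing, and the members that join T1C with A8G and A, C or T at position 5.
T1G with A6G, A at position 5: GgtaaGta
T1C with A8G, A at position 5: CgtaaatG
T1C with A8G, C at position 5: CgtacatG
T1C with A8G, T at position 5: CgtatatG

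The value given for an element is its editing level, the percent of its scored recorder adenosines that were edited, over 7 adenosines a read. Libraries held 11235321 to 25127959 reads, of which the members took 10.7% to 11.5%. A member had between 3977 and 44701 reads in a library; AgtaaaGa had the fewest on average and GgtagaGa the most. Members called by a test passed an adjusted p under 0.05 over all 1006 elements.

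Every member was edited more when the fusion was induced. The median member was edited at 1.72%, 1.91% and 1.80% in the non-induced libraries, at 4.14%, 4.48% and 4.09% at 25 ng, at 7.57%, 7.68% and 7.74% at 250 ng, and at 2.01%, 1.95% and 1.82% with ADARcdMUT alone. The libraries of the non-induced, 25 ng and 250 ng groups did not overlap, while those of the non-induced and ADARcdMUT groups did. As means these are 1.81% ± 0.0934, 4.24% ± 0.211, 7.66% ± 0.0845 and 1.93% ± 0.0955 (SD, n = 3). The median member therefore rose 4.23-fold from non-induced to 250 ng and 2.34-fold to 25 ng, and it stood 1.06-fold above non-induced with ADARcdMUT alone. Over all 1006 elements the same folds were 4.32, 2.38 and 1.07. In limma's fit of log2 odds of editing, every member was higher at 25 and at 250 ng than in either other group, and higher at 250 than at 25 ng. In each of these comparisons the call covered 100.0% of all elements, so these counts show the induction of the whole library. With ADARcdMUT alone against non-induced, limma called 0 members, 0.199% of all elements higher and 0.0% lower.

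The members were then compared with the other elements of the same library. For this the log2 odds were centred on the library's median element, so that a change is one relative to that median. The comparisons share their control libraries, and the 250 and 25 ng comparisons both use the same non-induced libraries, so their counts are not independent of each other. Of the members, limma called 4 higher and 7 lower at 250 ng than non-induced, against 9.64% of all elements higher and 3.38% lower. At 25 ng against non-induced it called 1 member higher and 3 lower, against 7.06% and 2.19% of all elements. Against ADARcdMUT alone, 3 members were higher and 8 lower at 250 ng (10.3% and 4.37% of all elements), and 2 were higher and 2 lower at 25 ng (7.55% and 2.49%). The members' median centred change was -0.03 log2 at 250 ng against non-induced, where that of all elements was 0.01.

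These counts were small and moved with single libraries. Counts over all elements in the same fits are not given here. Whether the members moved apart from the library in them was not tested. At 250 ng against non-induced, leaving out 250 ng replicate 1, 2 or 3 left 2, 2 and 3 members called lower and 2 called higher each time. Without non-induced replicate 1, or without 25 ng replicate 3, 2 members were called higher. Without ADARcdMUT replicate 2, which enters only through the shared estimate of the spread, 12 members were called lower. In the comparison of 250 ng with ADARcdMUT alone, the 8 members called lower became 1, 2 and 1 without 250 ng replicate 1, 2 or 3. Without ADARcdMUT replicate 3 the members called higher there became 6, and without ADARcdMUT replicate 1, 250 ng replicate 2 or 250 ng replicate 3 they became 2. At 25 ng against non-induced, the 3 members called lower became 7 and 6 without ADARcdMUT replicate 1 or 2, and 1 without 25 ng replicate 1, 2 or 3, non-induced replicate 1 or 250 ng replicate 2. The 1 member called higher there became 0 without 25 ng replicate 1 or 2, 2 without ADARcdMUT replicate 1 and 3 without ADARcdMUT replicate 2. At 25 ng against ADARcdMUT alone, the 2 members called lower became 6 and 5 without ADARcdMUT replicate 1 or 2, and 3 without non-induced replicate 2 or 3 or without 25 ng replicate 1. The 2 called higher there became 3 and 4 without ADARcdMUT replicate 2 or 3. With ADARcdMUT alone against non-induced, 2 members were called higher without ADARcdMUT replicate 1 and 2 lower without ADARcdMUT replicate 3.

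Between 25 and 250 ng no member was called relative to the library median. Limma called 0 members in that comparison, as it called 0.0% of all elements in either direction. A quasi-binomial model and a fit of only these 2 groups also called 0, while the arcsine square root scale called 2 higher. On that scale a fixed log2 odds distance from the median grows with the editing level. A call there need not be a change in log2 odds. Members with an unadjusted p under 0.05 in limma numbered 0, but of all 1006 elements only 4 had such a value. The limma fit of all 4 groups shared its estimate of the spread, and their typical replicate SD ran from 0.02 to 0.10. That fit may be too strict between 25 and 250 ng, so the lack of small p-values is not evidence of no change. The members' centred changes ran from -0.11 to 0.12 log2. Of ADARcdMUT alone against non-induced on centred values, limma and the quasi-binomial model called 0 members. Limma called 0.199% of all elements higher and 0.0% lower there. An unadjusted p under 0.05 in limma was found for 17 members and for 134 of all 1006 elements, of which the members make up 10.7%. Whether the members passed that threshold more often than other elements was not tested. The shared spread may be too small for comparisons with ADARcdMUT alone, whose typical replicate SD was the largest.

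Over all members, how far they stood apart relative to the library median was similar in the 4 groups, but the replicates repeated it best at 250 ng. On centred log2 odds the SD between the members' means was 0.10 without induction, 0.09 at 25 ng, 0.09 at 250 ng and 0.11 with ADARcdMUT alone. Without the 3 members that hold TGTA it was 0.10, 0.07, 0.07 and 0.11 in the same order, so the similarity rested on those 3. The typical SD between replicates of 1 member was 0.08, 0.06, 0.02 and 0.10 in the same order. In percentage points the SD between members was 0.482 at 250 ng, and 0.323 without the 3 members that hold TGTA. Elements built the same way around position 2 or position 3 had median levels of 7.74% ± 0.139 and 7.81% ± 0.0672 at 250 ng (SD, n = 3). On centred values at 250 ng against non-induced, 7 position 2 elements were called higher and 3 lower, and 1 position 3 element was called higher and 4 lower, in families as large as the members'. These were 6.48% and 2.78% of the position 2 family and 0.926% and 3.70% of the position 3 family. Over all elements the shares were 9.64% higher and 3.38% lower. The difference between these families and the members was not tested.

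The 3 members with the letters TGTA at positions 5 to 8 were the 3 most edited members at both 25 and 250 ng. GgtatGta was edited at 10.4%, 10.3% and 10.4% at 250 ng, at 5.43%, 5.91% and 4.99% at 25 ng, at 1.78%, 1.96% and 1.80% without induction, and at 1.82%, 1.81% and 2.01% with ADARcdMUT alone. It was thus high in every induced library and near the median member in the others, where its 2 groups overlapped. Its centred change was 0.42 ± 0.07 log2 (SE) at 250 ng against non-induced (limma, adjusted p = 0.000979). At 25 ng against non-induced it was 0.32 (adjusted p = 0.0102). Against ADARcdMUT alone it was 0.49 at 250 ng (adjusted p = 0.00022) and 0.39 at 25 ng (adjusted p = 0.00232).

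AgtatGta was edited at 9.69%, 9.64% and 9.68% at 250 ng, at 5.07%, 5.14% and 4.86% at 25 ng, at 1.82%, 1.94% and 1.90% without induction, and at 2.03%, 1.65% and 1.82% with ADARcdMUT alone. Its 3 libraries at 250 ng lay below those of GgtatGta and above those of every member without TGTA. Its centred change was 0.27 ± 0.06 log2 (SE) at 250 ng against non-induced (limma, adjusted p = 0.00794). Against ADARcdMUT alone it was called at both amounts, with 0.42 at 250 ng (adjusted p = 0.000255) and 0.31 at 25 ng (adjusted p = 0.00431). At 25 ng against non-induced it was 0.17 and missed the threshold (adjusted p = 0.123).

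CgtatGta was edited at 9.05%, 9.18% and 9.61% at 250 ng, at 5.02%, 4.90% and 4.96% at 25 ng, at 2.05%, 2.08% and 1.93% without induction, and at 1.81%, 2.18% and 2.16% with ADARcdMUT alone. Its level at 250 ng again lay above all members without TGTA, whose highest single library value was 8.93%. Its level without induction was the highest of the trio, and its centred change, 0.11 ± 0.09 log2 (SE), was not called (limma, adjusted p = 0.52). It was not called in any of the 6 comparisons.

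Neither part of that motif gave the same levels alone. At 250 ng the 9 other A6G members, with A, C or G at position 5, averaged 7.53% ± 0.127 (SD, n = 3), and the 24 other members with T at position 5 averaged 7.86% ± 0.179, against 9.78% ± 0.104 for the trio. Expressed within library, A6G members with T at position 5 stood 0.37 ± 0.02 log2 odds (SD, n = 3) above the A6C and A6T members with the same base. With the other bases at position 5 the same difference was -0.02 ± 0.01. Part of this was present without induction, where the differences were 0.15 ± 0.06 with T at position 5, above 0 in all 3 libraries, and -0.08 ± 0.004 with the other bases. These are levels of chosen letters seen after the values were known, and no test was made of them.

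The letters TGTA end 13 of the 1005 8-base elements, and 10 of those are no members. At 250 ng those 10 ranged from 8.20% to 10.4%, and limma called 5 of them higher on centred values than in the non-induced libraries and 0 lower. Those 10 include tgtatGta, at 10.4%, which also keeps TGTA at positions 1 to 4. Of the 3 members with that ending, 2 were called. Among the others, tgCatGta reached 9.89% ± 0.265 and tTtatGta 9.78% ± 0.0769 (SD, n = 3), while tgGatGta reached 8.20% ± 0.321 and had a centred change of -0.19 (adjusted p = 0.208).

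Setting each member beside the elements with only 1 of its 2 substitutions shows what the second change added. At 250 ng the 4 consensus forms averaged 13.0% ± 0.227, the 36 elements with only the 3′ substitution 9.74% ± 0.167, the 12 with only the position 1 substitution 8.31% ± 0.175, and the members 7.70% ± 0.103 (SD, n = 3). Without induction the same 4 sets averaged 1.80%, 1.78%, 1.75% and 1.81%, which differed by less than the largest SD among them, 0.120. With ADARcdMUT alone they averaged 1.78%, 1.94%, 1.92% and 1.94%. There the members stood above their consensus forms by 0.17, 0.13 and 0.09 log2 odds in the 3 libraries, the other way from 250 ng. Relative to its consensus form in the same library, a member stood 0.84 ± 0.03 log2 odds lower on average at 250 ng. The position 1 substitution alone stood 0.72 ± 0.04 lower than the consensus form, and the 3′ substitution alone 0.48 ± 0.02 lower.

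Most of a member's distance from the consensus was already there with position 1 changed. Adding the 3′ substitution to a position 1 variant lowered the log2 odds by a further 0.12 ± 0.01 at 250 ng, and 80 members lay below their position 1 parent in all 3 libraries. Adding the position 1 substitution to a 3′ variant lowered them by 0.37 ± 0.01, and 107 members lay below their 3′ parent in all 3 libraries. The exception, GgtatGta, differed from tgtatGta by 0.00 ± 0.05 log2 odds (SD, n = 3). Their levels were 10.4% ± 0.0524 and 10.4% ± 0.292.

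The sum of both single losses lay below nearly every element of the library. Each member was compared with its consensus form plus both single-substitution differences, in the same library at 250 ng. That sum averaged -0.39 on centred log2 odds, and only 1 of all 1006 elements was measured below it. For 37 members the sum lay below every measured element. The members averaged -0.04, a gap of 0.36 ± 0.03 log2 odds above the sum (SD, n = 3). The gap was 0.41 ± 0.02 where the second substitution was at position 6, 0.37 ± 0.03 at position 7 and 0.29 ± 0.03 at position 8, where the 3′ substitution alone had lost 0.51, 0.50 and 0.41. Since so few elements lie at or below the sum, the gap does not show how the 2 substitutions act together. The gap was widest for GgtatGta, at 0.80 ± 0.11, and 1 member, GgtaaGta, lay below the sum in all 3 libraries, at -0.19. The parents are shared by several members, so the members are not independent measurements of this gap. Over all members the gap was 0.07 ± 0.14 without induction and -0.12 ± 0.10 with ADARcdMUT alone (SD, n = 3).

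GgtaaGta stood at the other end. It was edited at 5.47%, 6.07% and 5.91% at 250 ng, at 3.20%, 3.14% and 3.17% at 25 ng, at 1.38%, 1.40% and 1.70% without induction, and at 1.64%, 1.78% and 1.58% with ADARcdMUT alone. Its mean levels of 5.82% at 250 ng and 3.17% at 25 ng were the lowest of all 1006 elements. At 250 ng its 3 libraries lay below every library of every other member, of which the lowest value was 6.89%. The next lowest members there were AgtagatC at 7.05% ± 0.156 and CgtaaTta at 7.12% ± 0.178. It was already 0.30 log2 below the library median without induction, and 0.47 below at both 25 and 250 ng. The centred change at 250 ng was -0.17 ± 0.10 log2 (SE) and was not called (limma, adjusted p = 0.307). Fewer of its reads carried any edit, 4.95% ± 0.0904 without induction and 16.3% ± 0.959 at 250 ng, where the median member had 6.99% and 21.8%. Those reads that were edited carried 2.11 edits each without induction, the highest of all elements, where the median member had 1.82.

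The T1G base and the neighbouring letters of GgtaaGta were each found in members without such a level. AgtaaGta and CgtaaGta share all but the first base with it and reached 7.93% ± 0.194 and 7.65% ± 0.218 at 250 ng. The letters GTAAGT, which these 3 members share, are found in 7 of the 1005 8-base elements, and the 4 that are no members ranged from 8.07% to 10.8%. Those 4 include tgtaaGta, which keeps TGTA at positions 1 to 4. The T1G parent without A6G, Ggtaaata, was at 8.16% ± 0.2 at 250 ng, and the A6G parent without T1G, tgtaaGta, at 10.8% ± 0.115. Reads of GgtaaGta were not scarce, with at least 7767 in each library. Among the members only GgtaaGta joins T1G with GTAAGT, and the cause of its low level was not tested.

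The members called lower at 250 ng began above the library median and ended below it. They were picked by their change from the same non-induced values, so a high start is partly built into the call. All 7 had centred values between 0.06 and 0.24 without induction, and between -0.15 and -0.03 at 250 ng. They were CgtacatG, CgtaaatG, GgtagatC, CgtagCta, CgtagatC, GgtagatT and GgtaaaGa. Of these, 4 had G at position 5, 5 had position 8 substituted and none had T1A or T at position 5.

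The 3 lowest changes relative to the median were in members that join T1C with A8G. CgtacatG was edited at 2.01%, 2.42% and 2.03% without induction, at 4.18%, 4.40% and 4.58% at 25 ng, at 7.34%, 7.68% and 7.88% at 250 ng, and at 2.10%, 1.99% and 1.78% with ADARcdMUT alone. CgtaaatG was edited at 2.03%, 2.24% and 2.12% without induction, at 4.11%, 4.95% and 4.13% at 25 ng, at 7.45%, 7.95% and 7.76% at 250 ng, and at 2.33%, 2.24% and 2.05% with ADARcdMUT alone. Their non-induced levels, with that of CgtatatG at 2.14% ± 0.119, were the 3 highest of the members, while their levels at 250 ng were close to the members' median. The same non-induced values enter the changes by which these members were picked. The centred changes at 250 ng were -0.29 ± 0.06 (SE) for CgtacatG (limma, adjusted p = 0.00433), -0.26 ± 0.05 for CgtaaatG (adjusted p = 0.00393) and -0.25 ± 0.10 for CgtatatG (adjusted p = 0.126). The fourth such member, CgtagatG, had a change of -0.17 ± 0.08 (adjusted p = 0.185). Both called elements were also called lower at 25 ng, with -0.23 (adjusted p = 0.0303) and -0.22 (adjusted p = 0.0204), calls that were missed in 8 and 7 of 20 other settings. Against ADARcdMUT alone at 250 ng, CgtaaatG was called (-0.22, adjusted p = 0.0142) and CgtacatG was not (-0.06, adjusted p = 0.601).

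The remaining 5 lower calls at 250 ng against non-induced lay between -0.22 and -0.20 log2, and of 20 other settings CgtagCta missed the call in 9 and the others in 4 or 5. The lowest was GgtagatC at -0.22 ± 0.06 (SE, adjusted p = 0.0294), which went from 1.86%, 2.17% and 2.07% without induction to 7.46%, 7.66% and 7.61%. At 25 ng the third lower call was CgtaaTta, at -0.26 ± 0.07 (adjusted p = 0.031), with 3.99%, 3.63% and 3.73% at that amount, a call missed in 9 of 20 other settings.

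Against ADARcdMUT alone most lower calls fell on members with position 8 substituted. At 250 ng they were CgtagatT, CgtaaatC, GgtaaatC, CgtaaatG, AgtagaGa, CgtacatC, AgtaaatC and CgtagTta, with changes from -0.28 to -0.18. Of the 8, 6 had position 8 substituted and 4 of these carried A8C. These calls did not all hold: of 20 other settings, CgtagTta missed the threshold in 13, AgtaaatC and CgtacatC in 7 each and GgtaaatC in 6, each including the loss of any 1 of the 250 ng libraries. All 8 stood above the library median with ADARcdMUT alone, in the values that entered their calls. CgtagatT was called at 250 ng (-0.28 ± 0.05 SE, adjusted p = 0.00227) and at 25 ng (-0.27, adjusted p = 0.00432). Its levels were 2.33%, 2.25% and 2.04% with ADARcdMUT alone and 1.76%, 1.80% and 1.84% without induction, and these groups did not overlap. CgtaaatC was called at both amounts as well, with -0.25 (adjusted p = 0.0198) and -0.27 (adjusted p = 0.0148).

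Beyond the TGTA pair, the members called higher were T1A variants with T at position 5. AgtatatT was edited at 8.26%, 8.17% and 8.93% at 250 ng and at 1.62%, 1.66% and 1.78% without induction, a centred change of 0.22 ± 0.06 (SE, adjusted p = 0.0338). AgtataCa was edited at 7.82%, 8.14% and 8.38% and at 1.45%, 1.79% and 1.65%, a change of 0.21 ± 0.06 (adjusted p = 0.0406). Both began below the library median, at -0.11 and -0.17, in the non-induced values that entered their calls. Their calls were missed in 8 and 9 of 20 other settings, including each of the 3 that left out a 250 ng library. AgtacaCa, with C at position 5 and the fifth largest change, had a change of 0.21 ± 0.07 that missed the threshold (adjusted p = 0.0579). Against ADARcdMUT alone AgtataAa was called at 250 ng, at 0.31 ± 0.08 (adjusted p = 0.0198), with 7.99%, 8.53% and 8.74% there and 1.62%, 1.60% and 1.84% with ADARcdMUT alone; this call was missed in 6 of 20 other settings.

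Averaged over the cross, members with T at position 5 were the most edited at 250 ng. Members with T there averaged 8.08% ± 0.17, with C 7.70% ± 0.0796, with A 7.54% ± 0.128 and with G 7.49% ± 0.0437 (SD, n = 3; 27 members each). Within a library T stood above G by 0.09, 0.11 and 0.14 log2 odds at 250 ng, and by -0.04, 0.00 and -0.08 without induction. Without the 3 TGTA members, T averaged 7.86% and the difference between T and G at 250 ng was 0.08 ± 0.03. The order of A and G was within the spread of libraries, with a difference of 0.01 ± 0.02.

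By the base at position 1, T1C members were the least edited at 250 ng. There members with T1G averaged 7.85% ± 0.0849, with T1A 7.73% ± 0.0939 and with T1C 7.52% ± 0.14 (36 members each). T1C was the lowest within each of the 3 libraries, by 0.03 to 0.06 log2 odds against T1A and by 0.05 to 0.08 against T1G. Without induction T1A was the lowest, at 1.75% ± 0.0741 against 1.82% ± 0.104 for T1C and 1.87% ± 0.0948 for T1G. Relative to the library median T1A members thus changed by 0.03 ± 0.02 at 250 ng, T1C members by -0.06 ± 0.01 and T1G members by -0.04 ± 0.01.

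By second substitution, A6G members averaged 8.09% ± 0.118 at 250 ng and T7G members, the lowest, 7.50% ± 0.0837 (12 members each). The A6G average rested on the trio, as given above. By position, members changed at 6, 7 and 8 averaged 7.79%, 7.61% and 7.70%. Position 6 stood above position 8 by 0.01 log2 odds at 250 ng, and by -0.02 without the TGTA members, so the order turned on those 3. The A8C and A8G members changed by -0.11 ± 0.02 and -0.11 ± 0.004 relative to the library median from non-induced to 250 ng, and the A8T members by 0.03 ± 0.02. At 250 ng itself A8T stood above A8G by 0.01 ± 0.01 log2 odds; without induction it stood below by 0.12 ± 0.01 and was lower in all 3 libraries.

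Base composition moved with these values. Members with 1, 2, 3 and 4 G or C bases (6, 30, 48 and 24 members) averaged 7.94%, 7.79%, 7.66% and 7.60% at 250 ng and 1.72%, 1.77%, 1.82% and 1.87% without induction. Their centred changes were 0.10, 0.03, -0.04 and -0.09. Their share of the library's reads also shifted from non-induced to 250 ng, by median log2 ratios of 0.19, 0.08, -0.00 and -0.04, with GgtagatT falling most (-0.42) and CgtatatT rising most (0.45). At 25 ng against non-induced the same ratios were 0.002, 0.009, -0.008 and -0.012. With ADARcdMUT alone they ran the other way, at -0.205, -0.080, 0.002 and 0.161. The part of base composition and of read share in the editing differences was not tested.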

How the data were processed

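PCR amplicons of the recorder 3′ UTR were sequenced in 12 libraries, per the labels' protocols. The labels' extraction text names embryos of another organism, while every other field gives HEK293T. The tools that aligned reads and called edits were not given in the sources used here. Deposited counts per element are reads, edited reads and summed edits; the authors' deposited percent equals edits over 7 times reads (recomputed within 1e-09), and the deposited score was only checked. The 16 elements not listed in every library were left out, and all 108 members remained.

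The tested value was log2((edits + 0.5)/(unedited adenosines + 0.5)), as such and centred on each library's median. All 12 libraries entered 1 fit in limma 3.58.1 (R 4.3.3; lmFit, eBayes with trend) with 6 comparisons and Benjamini-Hochberg adjustment over 1006 elements. Python 3.11.15 with pandas 2.3.3 and numpy 2.4.6 did the rest. On simulated data with 200 changed elements, limma's test was checked before use. The outcome is not given here. How limma's test behaves where groups differ in replicate SD, as they did here, was not tested. SDs are between libraries. Labels mention no molecular identifiers, so counting errors cover counting only. For the percent of reads edited they were typically 0.225 to 0.316 points. The replicate variance of that percent was 1.95 to 4.86 times the counting variance. Replicates of a group differed by 6.24 to 202 times sampling noise, so none was a duplicate.

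The rule for members used letters alone, but the rule and the lists were chosen with earlier results of these data known. Named elements were those holding TGT, those called on centred values, the 5 largest and 5 smallest changes at 250 ng, the 3 highest and 3 lowest levels there, the relevant parents and consensus forms, and the members with most and fewest reads. Alternatives were another pseudocount, read minimum, scale, centring and model, fits of 2 groups, a replicate block and each library left out.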

Additional observations from a re-analysis of the deposited data

How the results depend on the processing

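Every member stayed called higher on absolute values in each of the 5 comparisons of induced fusion, with a pseudocount of 5, with the replicate block and with each library left out; against non-induced, ADARcdMUT alone gave 0 to 13 calls with 1 library left out. On centred values the counts of called members moved most. They are given without the counts over all elements, so they do not show whether only the members moved. The arcsine square root scale gave 15 lower (250 ng against non-induced), 2 higher (25 ng against non-induced), 2 higher (250 against 25 ng), 18 lower (250 ng against ADARcdMUT) and 4 lower (25 ng against ADARcdMUT). There a fixed log2 odds distance from the median grows with the editing level, so these counts are not of the same quantity. The share of reads edited gave 1, 2 and 0 higher for 250 ng against non-induced, 25 ng against non-induced and 25 ng against ADARcdMUT. Fitting only 2 groups gave 13, 4 and 1 lower for 250 ng against non-induced, 250 ng against ADARcdMUT and 25 ng against ADARcdMUT. The quasi-binomial model gave 2 higher at 250 ng and 0 lower at 25 ng against non-induced. The replicate block gave 5 lower for 250 ng against ADARcdMUT and otherwise stayed within 1.5 times. Same-numbered libraries of different groups deviated together by correlations of -0.0946 to 0.0737. No shared pattern by replicate number was seen, which does not show that same-numbered samples were prepared apart. With 1 library left out the ranges were 2 to 5 higher and 2 to 12 lower, 0 to 3 and 1 to 7, 0 and 0, 2 to 6 and 1 to 11, 2 to 4 and 2 to 6, and 0 to 2 each, in the order 250 ng, 25 ng against non-induced, 250 against 25 ng, 250 ng, 25 ng against ADARcdMUT, and ADARcdMUT against non-induced. Centring on elements without TGT gave median changes of -0.025 at 250 ng and -0.0189 at 25 ng against non-induced, and -0.0157 at 25 ng against ADARcdMUT; with 1 library left out these ran from -0.0409 to -0.028, -0.0424 to -0.0198 and -0.0528 to -0.0193, and for ADARcdMUT against non-induced from -0.0155 to 0.0174. On the share of reads edited, members stood -0.54 from the consensus, -0.0698 from the position 1 parent, -0.22 from the 3′ parent and 0.25 from the sum, T minus G changed by 0.12 and position 6 minus 8 by 0.0581; without the TGTA members, a setting chosen after seeing the data, the last was 0.0502. With 1 library left out, these ran from -0.86 to -0.83, -0.13 to -0.12, -0.37 to -0.36, 0.34 to 0.37, 0.13 to 0.17 and 0.07 to 0.08, and T1A minus T1C from 0.07 to 0.12. No called direction reversed. Of the named calls under these settings, 471 values kept the call and 129 missed the threshold; the cause was not tested. GgtatGta, CgtacatG and CgtaaatG stayed called at 250 ng against non-induced in all 20 settings.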
